A study of Mus musculus with 32 samples.

Results

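The 10 genes described here encode the lipopolysaccharide (LPS) receptor complex of microglia (Tlr4, Ly96 and Cd14), the related receptor Tlr2, and the adaptors and kinases below them, Myd88, Irak4, Irak1, Irak2, Irak3 and Traf6. They were chosen by gene name and make up 10 of the 45706 genes in the deposited table. All 10 were protein-coding, had an estimated count above 0 in all 32 libraries and passed the filter on low counts in every comparison. The libraries were RNA sequencing of BV-2 cells, an immortalised mouse line used as a model of microglia, the resident macrophages of the brain. Their genotype is given as wild type. All cells were transfected, either with a microRNA mimic (a synthetic duplex standing in for the mature strand) of miR-146a-5p, miR-7a-5p or miR-29a-3p, or with a scramble control, and all were exposed for 24 h to vehicle (VEH) or to LPS at 10 ng/ml. This gave 8 groups of 4 libraries: under vehicle VEH_scramble, VEH_miR-146a, VEH_miR-7a and VEH_miR-29a, and under LPS LPS_scramble, LPS_miR-146a, LPS_miR-7a and LPS_miR-29a. The sample labels place LPS before transfection and the study's methods place transfection first. One set of 4 scramble libraries per condition serves all 3 mimics, which ties the 3 comparisons with scramble to each other. The study describes its n as independent experiments, but the labels name no cultures, so p-values measure the spread between these libraries. The libraries were made from total RNA after depletion of ribosomal RNA, and the mature microRNAs themselves were not measured here.

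Toll-like receptor 4 (Tlr4) recognises LPS together with its partner Ly96 (MD-2), and Cd14 hands LPS to that pair. The receptor recruits the adaptor Myd88, which assembles Irak4 with Irak1 or Irak2 and passes the signal to the ubiquitin ligase Traf6 and on to NF-kappa-B. Irak3 (IRAK-M) is an inhibitory member of the kinase family, and Tlr2 is the receptor for bacterial lipoproteins that uses the same adaptor. MiR-146a is itself made in response to NF-kappa-B and is known for restraining this pathway, with Irak1 and Traf6 as its classical targets. A microRNA finds its targets mainly by pairing of its seed, bases 2 to 8 counted from its 5′ end, with the 3′ untranslated region (UTR) of a messenger RNA.

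The mature sequences of the 3 mimicked microRNAs (RefSeq, GRCm38.p6) show that their seeds differ, and the capitals mark the seed. MiR-146a lies at chr11:43374435-43374456 and miR-29a at chr6:31062673-31062694, both on the minus strand. MiR-7a is encoded at 2 loci, chr7:78888295-78888317 on the plus strand and chr13:58392841-58392863 on the minus strand.
miR-146a-5p: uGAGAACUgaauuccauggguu
miR-7a-5p: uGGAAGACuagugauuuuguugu
miR-29a-3p: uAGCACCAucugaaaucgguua

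Matches to each seed were searched on the sense strand of the longest annotated 3′ UTR of each gene (GENCODE M21, GRCm38). An 8-base match pairs with bases 2 to 8 and has an A opposite base 1 (AGTTCTCA for miR-146a, GTCTTCCA for miR-7a, TGGTGCTA for miR-29a). A 7-base match lacks either the pairing with base 8 or the A, and a 6-base match lacks both. For miR-146a, 3 of the 10 genes held a 7- or 8-base match, Irak1, Irak2 and Traf6, and of 11223 tested genes with an annotated 3′ UTR 20.4% did. With 6-base matches counted, Myd88 and Tlr2 joined them, 5 of 10 genes against 33.1% of all. Irak1 held 2 8-base matches and 1 7-base match in 1526 bases, Irak2 held 1 of 8 bases, 2 of 7 and 1 of 6 in 1246 bases, and Traf6 held 4 8-base matches in 4170 bases. Irak3, Irak4, Tlr4, Cd14 and Ly96 held no match of any of these kinds for miR-146a. For miR-7a a 7-base match lay in Irak1, Traf6 and Tlr4, 3 of 10 genes against 25.8% of all genes with a match of 7 or 8 bases. For miR-29a it lay in Irak4 alone, 1 of 10 genes against 19.1%. The 3′ UTRs differ widely in length, from 74 bases in Ly96 and 148 in Tlr2 to the 4170 of Traf6. A match is a description of letters and not a measured binding site.

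The 8-base miR-146a matches are shown with their surroundings because these are the genes whose levels are compared first below, and the 7-base matches of Irak2 are added. Capitals mark the bases of the match, the sequences run 5′ to 3′ on the strand of the gene, and all coordinates are GRCm38. Irak1 is on the minus strand of chromosome X (chrX:74015389-74015414 and chrX:74015373-74015398), Irak2 on the plus strand of chromosome 6 (chr6:113694252-113694277, chr6:113694119-113694143 and chr6:113694635-113694659), and Traf6 on the plus strand of chromosome 2 (chr2:101697945-101697970, chr2:101698009-101698034, chr2:101698821-101698846 and chr2:101701345-101701370), in the order of the lines.
Irak1, 40 bases after the stop codon: gactcagaggtcaaAGTTCTCAtgct
Irak1, 56 bases after the stop codon: ttctcatgcttggaAGTTCTCAtagt
Irak2, 486 bases after the stop codon: ccggtgtctccgcaAGTTCTCAagtt
Irak2, 353 bases after the stop codon: cccccaaacctcttAGTTCTCcaca
Irak2, 869 bases after the stop codon: tgtatctgttctgtGTTCTCAatgg
Traf6, 460 bases after the stop codon: ccgctctggtgttgAGTTCTCAttta
Traf6, 524 bases after the stop codon: ccctggaaggcttaAGTTCTCAagta
Traf6, 1336 bases after the stop codon: gtactttggagtctAGTTCTCAggga
Traf6, 3860 bases after the stop codon: gactttgctactgcAGTTCTCAaaca

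**Figure D1:**
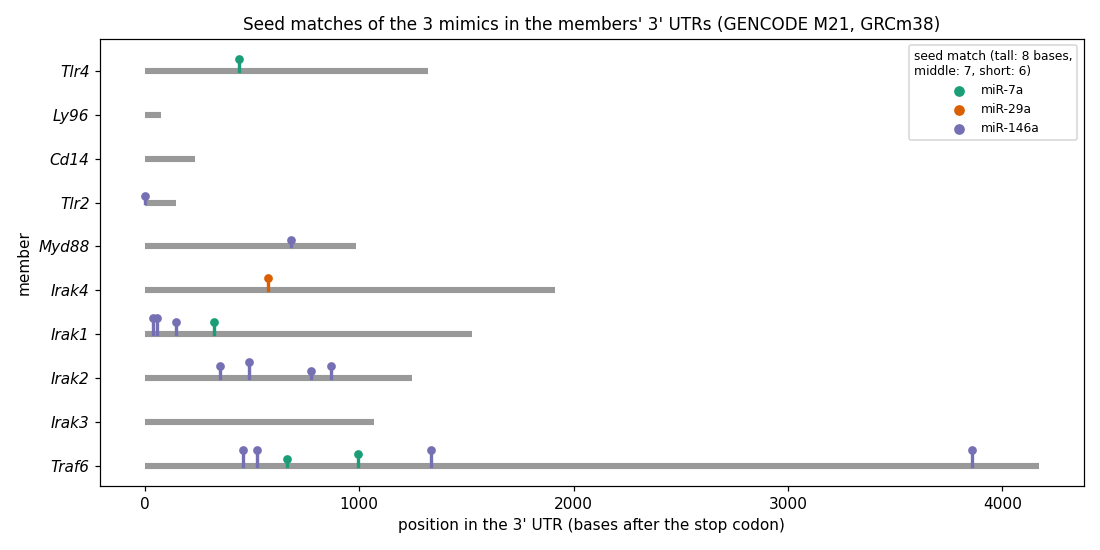
Seed matches of the 3 mimics along the 3′ UTR of each gene, in bases after the stop codon (grey bars, length of the UTR); tall marks are 8-base, middle marks 7-base and short marks 6-base matches. The miR-146a marks gather in Irak1, Irak2 and Traf6, and no mark lies in Irak3, Cd14 or Ly96.

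The deposited values are estimated counts that had lost their decimal marks, and levels are given here as CPM, counts scaled to a common library total, after the marks were restored and libraries scaled by TMM. Each of the 320 values of the 10 genes had a posterior of at least 0.9996 for its reading, 53 of them with lost decimals. Library totals ran from 1.13 M to 20.3 M counts, and the shallowest group was VEH_miR-7a with a median of 2.03 M counts. In VEH_miR-7a 4.14% to 37.4% of a library's counts came from small structural RNA genes, and in the other groups 2.72% to 19.4%. In VEH_scramble it was 6.87% to 12.4%, with a median total of 5.31 M counts. In LPS_scramble it was 3.03% to 5.93%, with a median total of 13.4 M counts. The part of depth in the LPS differences was not tested. The labels call the cell type glioblastoma. Markers of microglia and macrophages summed to 2034 to 3344 CPM per library, 2149 to 3156 in VEH_scramble and 2642 to 3309 in LPS_scramble, with Cd68, Adgre1, Ptprc, Itgam and Spi1 at medians of 865, 745, 450, 179 and 130 CPM. The microglial markers Aif1, P2ry12 and Tmem119 were low, with medians of 11.1, 5.11 and 2.83 CPM. Csf1r and Cx3cr1 were near 0, with medians of 0.641 and 0.617 CPM. The 5 astrocyte, 5 neuron and 5 fibroblast or endothelial markers summed to at most 1.91, 3.05 and 3.54 CPM in any library, and Gfap, Rbfox3 and Col1a1 had medians of 0. The 5 oligodendrocyte markers summed to 2.45 to 18.1 CPM, with Mbp at a median of 3.08 CPM, while Mog, Olig1 and Olig2 had medians of 0. In whole-culture RNA, fewer cells expressing a gene and less RNA per cell cannot be told apart.

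Levels of different genes are compared per kilobase of exon, as CPM per kb. In VEH_scramble, Tlr2 had the highest level, 33.6 ± 8.89 CPM per kb, followed by Irak1 at 28.8 ± 4.24, Irak2 at 23.4 ± 6.11 and Cd14 at 21.4 ± 7.25 CPM per kb (SD, n = 4). Neighbours among these 4 differed by less than the larger of their SDs. Myd88 (11.9 ± 1.35), Tlr4 (9 ± 0.81), Traf6 (7.58 ± 0.652) and Ly96 (5.7 ± 1.77) followed, and the lowest were Irak4 at 2.54 ± 0.574 and Irak3 at 1.16 ± 0.227 CPM per kb (SD, n = 4). The receptor partner Ly96, the inhibitory kinase Irak3 and the proximal kinase Irak4 were thus the least abundant of the 10 in VEH_scramble. Over all 32 libraries their estimated counts ran from 6 to 133, from 3 to 278 and from 7 to 163. Their values are accordingly less precise than those of the others.

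**Figure D2:**
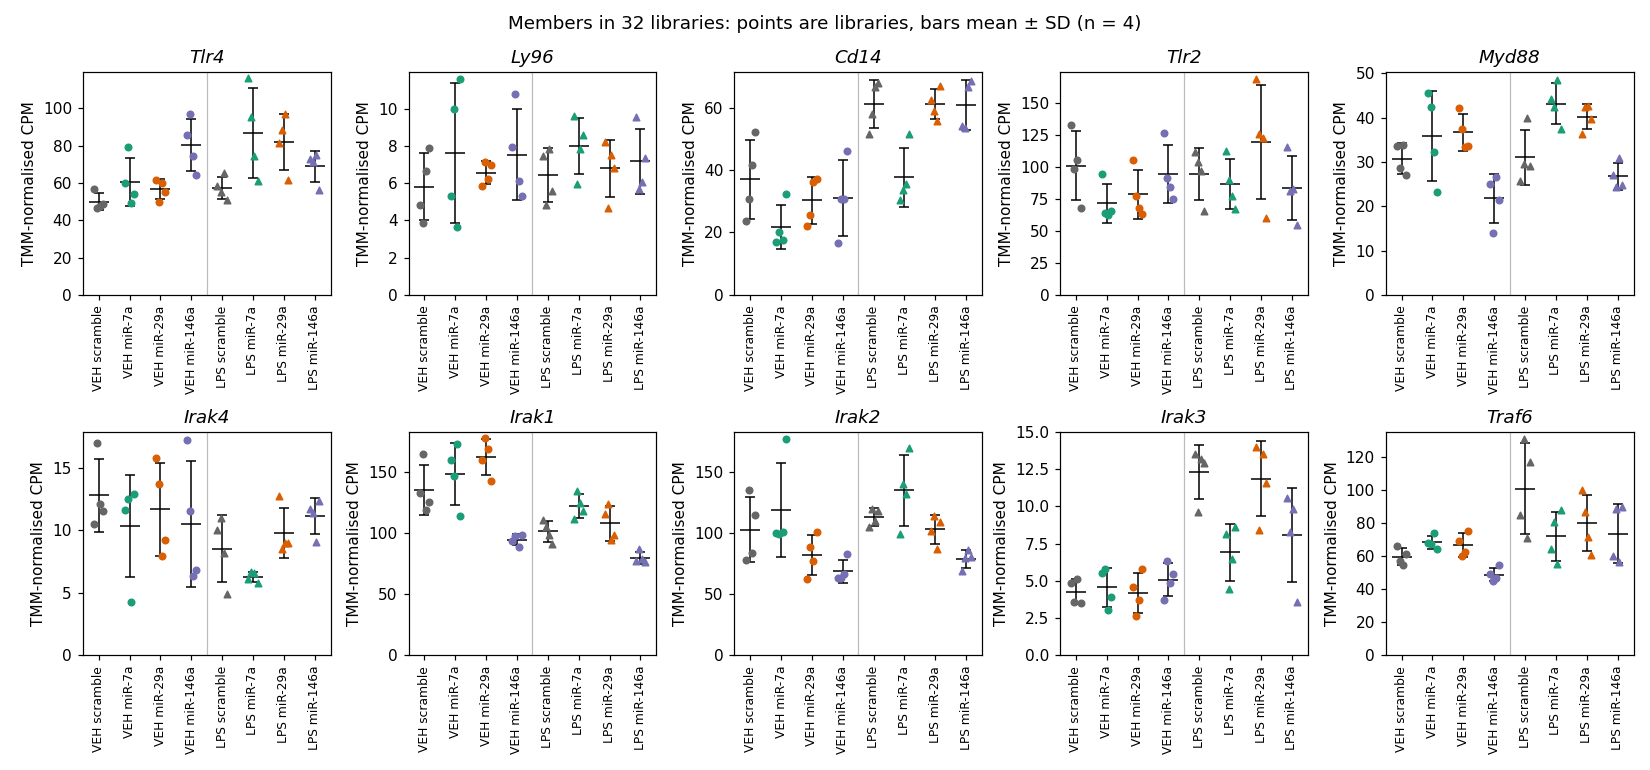
Level of each gene (TMM-normalised CPM, axes from 0) in the 32 libraries; circles are vehicle and triangles LPS libraries, colours the mimic, and black bars mean ± SD of 4 libraries. The miR-146a libraries of Irak1 (88.9 to 98.8 CPM under vehicle, 76.1 to 87.3 under LPS) sit below all other libraries of their condition. Irak3, Traf6 and Cd14 have their 4 highest group means under LPS.

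Irak1 was the gene that set the miR-146a libraries apart most plainly. It encodes the kinase that links Myd88 to Traf6 and lies at chrX:74013914-74023918 on the minus strand (ENSMUSG00000031392), where the annotated microRNA genes Mir718 and Mir5132 overlap it. With miR-146a its level was 93.8, 98.2, 88.9 and 98.8 CPM under vehicle and 77.3, 87.3, 78.7 and 76.1 CPM under LPS. With scramble it was 133, 165, 119 and 126 CPM under vehicle and 111, 105, 98.7 and 91.4 CPM under LPS. All 4 miR-146a libraries lay below all 12 other libraries of the same condition, which ran from 114 to 178 CPM under vehicle and from 91.4 to 135 under LPS. MiR-7a libraries held 160, 147, 173 and 114 CPM under vehicle and 112, 135, 125 and 118 under LPS. MiR-29a libraries held 160, 178, 169 and 143 CPM under vehicle and 116, 124, 94.3 and 98.4 under LPS. No vehicle library with either of these mimics came within the miR-146a range.

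By the test across all genes, Irak1 fell with miR-146a relative to miR-7a under vehicle (log2 fold change -0.69, SE 0.14, limma adjusted p = 0.0175) and under LPS (-0.60, SE 0.12, adjusted p = 0.0162), and relative to miR-29a under vehicle (-0.76, SE 0.12, adjusted p = 0.0112). Against scramble the estimates had the same sign but did not pass: -0.49 under vehicle (95% interval -0.82 to -0.17, adjusted p = 0.0773) and -0.32 under LPS (-0.55 to -0.08, adjusted p = 0.157). Against miR-29a under LPS the estimate was -0.42 (adjusted p = 0.0553). Same-numbered libraries deviate together in most comparisons. With the replicate number as a block, the difference from scramble under LPS (-0.32, adjusted p = 0.0409) and that from miR-29a under LPS (-0.43, adjusted p = 0.00995) passed. Under vehicle the calls were lost without VEH_miR-7a replicate 2, VEH_miR-7a replicate 3, VEH_miR-29a replicate 3 or, in both comparisons, VEH_miR-146a replicate 3, with adjusted p up to 0.0751 and 0.0585. The call against miR-7a under LPS was lost without LPS_miR-7a replicates 2 or 3 or LPS_miR-146a replicates 1 or 3 (adjusted p up to 0.0614).

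Irak2, the kinase that sustains the later phase of the signal, lies at chr6:113638467-113695026 on the plus strand (ENSMUSG00000060477), and 3 predicted genes overlap it, Gm43912 on its own strand and Gm43964 and Gm43963 on the other. Under LPS its level was 68.6, 79.6, 86.4 and 80.4 CPM with miR-146a and 105, 120, 110 and 118 CPM with scramble, 2 groups that did not overlap. The LPS libraries of miR-7a held 99.3, 140, 132 and 170 CPM and those of miR-29a 102, 114, 87.2 and 109 CPM, so that the 4 miR-146a libraries were again the lowest 4 of 16. It was the only gene of the 10 called between miR-146a and scramble, and it fell under LPS by a log2 fold change of -0.53 (SE 0.11, limma adjusted p = 0.0346). This call was narrow: of the 8 fits that each left out 1 library only that without LPS_miR-146a replicate 4 kept it, and the other 7 gave adjusted p up to 0.137. The edgeR quasi-likelihood test gave -0.52 (adjusted p = 0.0509) and a single fit over all 8 groups -0.54 (adjusted p = 0.0798).

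Against miR-7a under LPS Irak2 fell by 0.75 on the log2 scale (SE 0.17, limma adjusted p = 0.0252), and this call was lost without LPS_miR-7a replicates 2 or 3 or LPS_miR-146a replicates 1, 2 or 3 (adjusted p up to 0.0757). Against miR-29a the estimate was -0.38 (adjusted p = 0.0836, and 0.0351 with the replicate block). Under vehicle Irak2 was at 63.1, 63, 66.4 and 82.7 CPM with miR-146a and at 78.3, 135, 83.5 and 115 CPM with scramble. These groups overlapped by 1 pair of libraries, and the estimate of -0.53 had a 95% interval of -0.95 to -0.10 (adjusted p = 0.128). The vehicle difference from miR-7a, -0.69 (adjusted p = 0.0531), passed in 6 of 10 other settings, with the block among them (-0.78, adjusted p = 0.00155), and VEH_miR-7a replicate 4 stood apart at 177 CPM from the 99 to 101 of its group. The vehicle difference from miR-29a was -0.23 (95% interval -0.60 to 0.13, adjusted p = 0.437).

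Traf6, the ubiquitin ligase with 4 8-base matches, lies at chr2:101678429-101701669 on the plus strand (ENSMUSG00000027164) with no other annotated gene over it. Under vehicle its level was 49, 44.9, 46.8 and 54.4 CPM with miR-146a and 66.3, 57.1, 54.5 and 61.1 CPM with scramble. The miR-146a libraries were the lowest 4 of the 16 vehicle libraries, by a margin of 54.4 against 54.5 CPM. The difference from scramble was nevertheless within the error of the test (-0.29, 95% interval -0.61 to 0.03, limma adjusted p = 0.248). Against miR-7a it was -0.51 (adjusted p = 0.0593, and 0.0206 with the replicate block) and against miR-29a -0.46 (adjusted p = 0.0785). Under LPS the libraries of all groups spread widely, from 59.9, 88.4, 56.2 and 89.7 CPM with miR-146a to 85.2, 131, 70.8 and 117 CPM with scramble. Replicates 2 and 4 were the higher ones in both groups, and Traf6 was lower with miR-146a in 4 of 4 same-numbered pairs. The estimate of -0.49 (adjusted p = 0.282) passed with the replicate block (-0.44, adjusted p = 0.0161). The miR-7a mimic differed from scramble by -0.47 under LPS (adjusted p = 0.283, and 0.0166 with the block) but by 0.23 under vehicle (adjusted p = 0.592). The test of the difference between the conditions gave -0.70 (95% interval -1.29 to -0.11, adjusted p = 0.843). For miR-146a the estimates were below 0 in both conditions. Under LPS, the miR-146a and miR-7a libraries differed from each other by 0.00 (95% interval -0.44 to 0.45).

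Across the 10 genes, 2 had all miR-146a libraries below the other 12 under vehicle (Irak1 and Traf6) and 2 under LPS (Irak1 and Irak2), where 0.952% and 2.62% of 11662 genes of at least 1 CPM on average did. None of the 10 had all miR-146a libraries above the other 12, against 1.28% of genes under vehicle and 1.35% under LPS. By the test, 0 of 10 genes were called between VEH_miR-146a and VEH_scramble (limma, 1.8% of 11566 genes tested) and 1 of 10 between LPS_miR-146a and LPS_scramble (2.34% of 12458). The other settings called up to 4 of 10 in the vehicle comparison. These were Irak1, Irak2 and Myd88, lower, and Tlr4, higher, in the single fit over all 8 groups, where 12.5% of all genes were called. The shares of all genes rest on single libraries as well: in the vehicle comparison 208 genes were called, but 0 without VEH_miR-146a replicate 3 or 4 and 1180 without VEH_scramble replicate 1, and under LPS 291 were called, but 19 without LPS_miR-146a replicate 3. Between miR-146a and miR-7a 1 of 10 was called under vehicle (5.09% of genes tested) and 5 of 10 under LPS (6.24%). The 5 under LPS were Irak1, Irak2 and Myd88, lower, and Irak4 and Cd14, higher. Between miR-146a and miR-29a 1 of 10 was called in each condition (3.16% under vehicle and 11.9% under LPS). Without 1 library the 5 genes called against miR-7a under LPS became 0 to 4, and the calls over all genes fell from 769 to as few as 185 (without LPS_miR-7a replicate 3). Under vehicle they fell from 547 to 144 against miR-7a (without VEH_miR-146a replicate 3) and from 369 to 32 against miR-29a (without VEH_miR-29a replicate 3), and under LPS against miR-29a from 1466 to 699 (without LPS_miR-146a replicate 3). With the replicate block 5 of 10 were called against miR-7a under vehicle, where 14% of all genes were called. These were Irak1, Irak2, Traf6 and Myd88, lower, and Tlr2, higher. With the replicate block 3 of 10 were called against scramble under LPS, Irak1, Irak2 and Traf6, all lower, where 10.7% of all genes were called.

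**Figure D3:**
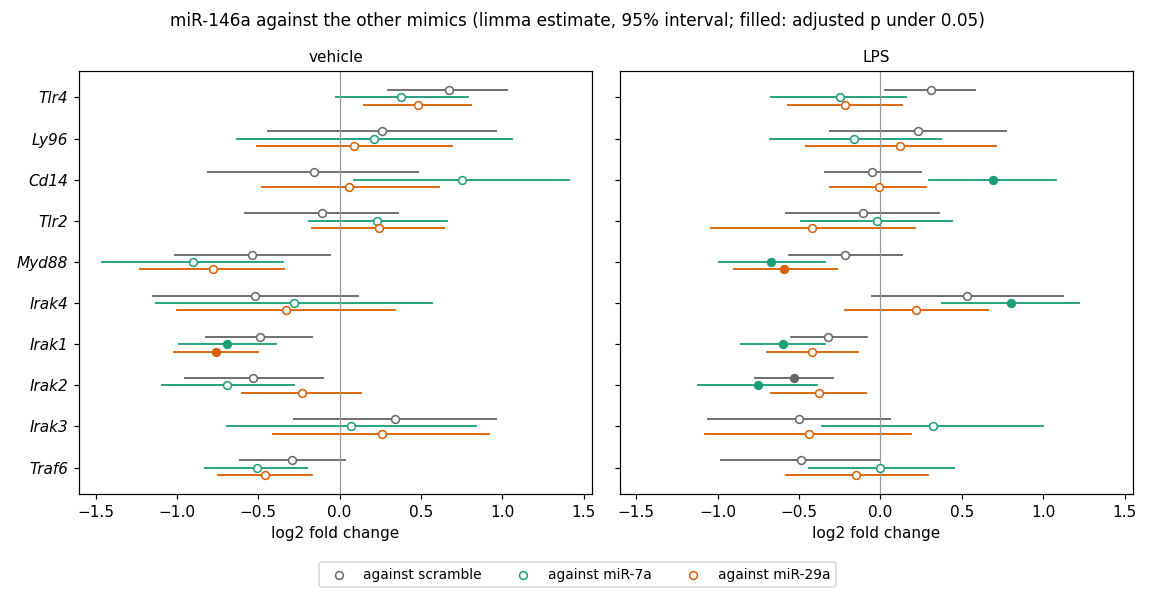
Difference of the miR-146a libraries from scramble (grey), miR-7a (green) and miR-29a (orange) for each gene, as log2 fold change with its 95% interval (limma), under vehicle and LPS; filled points passed an adjusted p of 0.05. Irak1, Irak2 and Myd88 lie left of 0 in all 6 comparisons, and Irak4 lies left of 0 under vehicle and right of 0 under LPS.

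Myd88, the adaptor that the receptor recruits, lies at chr9:119335934-119341411 on the minus strand (ENSMUSG00000032508). Acaa1a overlaps it on the opposite strand and Slc22a14 on its own, so reads from the shared stretches may be split between them. Under LPS its level was 27.1, 24.3, 30.9 and 24.8 CPM with miR-146a, 44.2, 42.3, 48.6 and 37.5 CPM with miR-7a and 36.3, 42.3, 42.6 and 39.8 CPM with miR-29a. The miR-146a libraries lay below all 8 libraries of the other 2 microRNAs. Myd88 fell with miR-146a relative to miR-7a by 0.67 (log2, SE 0.15, limma adjusted p = 0.0247) and relative to miR-29a by 0.59 (log2, SE 0.14, adjusted p = 0.0214). The first call was lost without LPS_miR-7a replicates 2 or 3 or LPS_miR-146a replicates 1, 2 or 3 (adjusted p up to 0.088), and the second without LPS_miR-29a replicate 3 or LPS_miR-146a replicates 1 or 2 (adjusted p up to 0.0739). Without a filter on low counts the adjusted p were 0.0599 and 0.0814.

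Scramble libraries of Myd88 under LPS, at 25.7, 29.5, 40 and 29.1 CPM, lay between the miR-146a and the miR-7a groups and overlapped both. The differences from scramble were -0.22 with miR-146a (adjusted p = 0.526), 0.46 with miR-7a (adjusted p = 0.136) and 0.39 with miR-29a (adjusted p = 0.149), none of which passed. Under vehicle Myd88 was at 25.1, 14, 26.6 and 21.3 CPM with miR-146a and at 33.5, 28.6, 33.9 and 27 CPM with scramble. The groups did not overlap, and the estimate was -0.54 (95% interval -1.01 to -0.06, adjusted p = 0.157). Against miR-7a it was -0.90 (adjusted p = 0.0627, and -0.74 with 0.0302 under the replicate block) and against miR-29a -0.78 (adjusted p = 0.0577). Myd88 held only a 6-base miR-146a match.

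Irak4, the kinase that joins Myd88 first, lies at chr15:94543643-94581815 on the plus strand (ENSMUSG00000059883), with Twf1 overlapping it on the opposite strand. Under LPS it was at 11.7, 11.4, 9.02 and 12.3 CPM with miR-146a and at 6.05, 6.68, 6.55 and 5.78 CPM with miR-7a, without overlap. It rose with miR-146a relative to miR-7a by 0.80 (log2, SE 0.19, limma adjusted p = 0.0334). Only the fit without LPS_miR-146a replicate 4 kept this call among the 8 that left out 1 library (the other 7 had adjusted p up to 0.0956), and without the filter on low counts the adjusted p was 0.13. From scramble, at 9.98, 11, 8.15 and 4.92 CPM, the miR-146a libraries differed by 0.53 (95% interval -0.05 to 1.12, adjusted p = 0.335). Under vehicle the sign was the opposite (-0.52, 95% interval -1.15 to 0.11, adjusted p = 0.28), but the test of the difference between the 2 conditions did not pass (1.04, 95% interval 0.20 to 1.89, adjusted p = 0.398).

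Irak3, which blocks the release of Irak1 and Irak4 from the receptor, lies at chr10:120141648-120202130 on the minus strand (ENSMUSG00000020227) and overlaps Tmbim4 and Gm47009 on the other strand. It had the largest LPS response of the 10 genes without an active mimic. Its level was 4.82, 3.57, 5.14 and 3.53 CPM in VEH_scramble and 13.5, 9.62, 13.2 and 12.9 CPM in LPS_scramble, with no overlap. It rose by a log2 fold change of 1.52 (SE 0.24, 95% interval 1.00 to 2.04, limma adjusted p = 0.00143), and all 8 fits without 1 library kept the call (adjusted p up to 0.0114). With miR-29a it rose from 4.6, 2.6, 3.7 and 5.78 CPM to 14, 8.4, 13.5 and 11.6 CPM (1.37, SE 0.30, adjusted p = 0.00665), again in all 8 such fits (adjusted p up to 0.0301).

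With miR-7a and miR-146a the LPS difference of Irak3 was smaller and did not pass the test. The libraries went from 5.51, 5.82, 3.05 and 3.88 CPM to 8.16, 4.42, 6.47 and 8.63 CPM with miR-7a (0.41, 95% interval -0.45 to 1.27, adjusted p = 0.624). With miR-146a they went from 3.68, 6.3, 4.84 and 5.46 CPM to 10.6, 8.27, 9.81 and 3.54 CPM (0.66, 95% interval -0.05 to 1.38, adjusted p = 0.315). LPS_miR-146a replicate 4, at 3.54 CPM, was below all 4 vehicle libraries of this mimic, and the other 3 were above them. The difference of these responses from that of scramble was -1.08 for miR-7a (SE 0.43, adjusted p = 0.843) and -0.87 for miR-146a (-1.74 to -0.00, adjusted p = 0.447), so that neither was called. LPS_miR-7a against LPS_scramble gave -0.83 (SE 0.22, adjusted p = 0.0753), and this passed with the replicate block (-0.84, adjusted p = 0.0196).

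Cd14, the LPS-binding co-receptor, lies at chr18:36725067-36726798 on the minus strand (ENSMUSG00000051439) with no other annotated gene over it. In scramble cells it was at 23.6, 30.6, 41.6 and 52.3 CPM under vehicle and 51.7, 57.9, 66.7 and 68 CPM under LPS, so the groups touched at 1 library each while every same-numbered pair was higher under LPS. Cd14 rose by 0.79 (log2, SE 0.22, limma adjusted p = 0.0329), and this call held in 2 of 8 fits that left out 1 library, those without VEH_scramble replicate 4 or LPS_scramble replicate 1 (adjusted p up to 0.0994 in the other 6). With miR-29a it went from 22.2, 25.7, 36.2 and 37.2 CPM to 62.5, 59.1, 55.8 and 67 CPM, with no overlap (0.97, SE 0.18, adjusted p = 0.00225, called in all 8 such fits). With miR-146a it rose from 16.5, 30.7, 30.6 and 46.2 CPM to 54.3, 53.5, 66.7 and 68.7 CPM (0.87, SE 0.21, adjusted p = 0.0356). That call was lost without VEH_miR-146a replicates 1, 2 or 3 or LPS_miR-146a replicates 3 or 4 (adjusted p up to 0.13).

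With miR-7a Cd14 had the lowest mean of each condition, at 17.1, 20, 17.7 and 32.3 CPM under vehicle and 30.3, 33.7, 35.4 and 51.5 CPM under LPS. The LPS difference of 0.94 had a 95% interval of 0.36 to 1.51 and missed the threshold (adjusted p = 0.0567), which it passed in 5 of 10 other settings and without LPS_miR-7a replicate 1 (adjusted p = 0.0403). The VEH_miR-7a libraries in it were the shallow ones with up to 37.4% structural RNA. With the structural RNA genes left out the LPS difference of Cd14 was 0.93 (adjusted p = 0.0474), and the part of the low depth was not tested. Under LPS the 4 miR-146a libraries lay above all 4 miR-7a libraries, and Cd14 was called higher with miR-146a than with miR-7a (0.69, SE 0.18, adjusted p = 0.0442). Of the 8 fits without 1 library only that without LPS_miR-7a replicate 4 kept this call, the others having adjusted p up to 0.138, and without the low-count filter the adjusted p was 0.0943. All 4 LPS_miR-7a libraries were also below all 4 LPS_scramble libraries (-0.72, SE 0.17, adjusted p = 0.0524), a difference that passed with the replicate block (-0.69, adjusted p = 0.00821).

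Tlr4, the signalling receptor, lies at chr4:66827584-66930284 on the plus strand (ENSMUSG00000039005) with no other annotated gene over it. Its VEH_scramble libraries were the lowest and tightest group, at 56.6, 46.7, 47.8 and 48.9 CPM. VEH_miR-146a libraries were at 85.8, 96.8, 74.6 and 64.5 CPM, all above them. This was the largest difference from scramble that miR-146a gave in any of the 10 genes, 0.67 (SE 0.17, 95% interval 0.30 to 1.03), and it did not pass (limma adjusted p = 0.0595). Without VEH_scramble replicate 1 the adjusted p was 0.0327. With the replicate block it passed (0.68, adjusted p = 0.0394), though the numbers do not pair these libraries. Under LPS the levels were 58.1, 55.3, 65.2 and 50.6 CPM with scramble, 116, 95.2, 74.4 and 60.8 with miR-7a, 81.3, 88.5, 96.7 and 61.8 with miR-29a and 72.9, 71, 75.2 and 56.4 with miR-146a. Every one of the 12 mimic libraries was above the same-numbered scramble library. The differences were 0.56 (adjusted p = 0.145), 0.54 (adjusted p = 0.074) and 0.31 (adjusted p = 0.239), and with the replicate block the first (0.53, adjusted p = 0.0372) and the second (0.53, adjusted p = 0.01) passed. Since these 3 comparisons share the scramble libraries, they are not 3 independent observations. Without the block the LPS difference of Tlr4 passed with miR-29a alone (0.51, SE 0.16, adjusted p = 0.0345). This call was kept by 2 of 8 fits without 1 library, those without VEH_miR-29a replicate 1 or LPS_miR-29a replicate 4 (adjusted p up to 0.0896 in the other 6). The difference of the miR-29a response from scramble was not called (0.32, 95% interval -0.11 to 0.76, adjusted p = 0.844). With the block the LPS difference also passed with miR-7a (0.56, adjusted p = 0.031), though the numbers do not pair those libraries.

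Ly96 (chr1:16688051-16709611, plus strand, ENSMUSG00000025779) and Tlr2 (chr3:83836272-83841767, minus strand, ENSMUSG00000027995) were called in none of the 17 comparisons by limma. Ly96 had group means from 5.81 ± 1.81 CPM in VEH_scramble to 8.01 ± 1.53 CPM in LPS_miR-7a (SD, n = 4), and all neighbouring groups overlapped. Tlr2 ran from 71.7 ± 15.4 CPM in VEH_miR-7a to 119 ± 44.8 CPM in LPS_miR-29a (SD, n = 4). Its replicate 1 was the highest library in 8 of 8 groups, and replicate 4 the lowest in 7. With the replicate block Tlr2 was called higher under LPS with miR-29a (0.52, adjusted p = 0.0165), lower with miR-146a than with miR-29a under LPS (-0.50, adjusted p = 0.00449) and higher with miR-146a than with miR-7a under vehicle (0.39, adjusted p = 0.0453).

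LPS called 3 of 10 genes in scramble cells, Irak3, Traf6 and Cd14, all higher, where 17.7% of 12080 genes were called. Traf6 went from 66.3, 57.1, 54.5 and 61.1 CPM to 85.2, 131, 70.8 and 117 CPM (0.73, SE 0.20, limma adjusted p = 0.0268). No VEH_scramble library reached the lowest LPS_scramble library. Its call was lost without VEH_scramble replicates 2, 3 or 4 or LPS_scramble replicates 2 or 4, with adjusted p up to 0.0898. With miR-7a 0 of 10 genes were called (6.5% of all, limma), with miR-29a 4 of 10 (26.2%), Irak3, Cd14 and Tlr4 higher and Irak1 lower, and with miR-146a 1 of 10 (4.43%), Cd14. These shares of all genes also rest on single libraries: the calls fell from 2139 to as few as 1092 in scramble cells (without LPS_scramble replicate 4), from 762 to 389 with miR-7a (without VEH_miR-7a replicate 3), from 528 to 266 with miR-146a (without VEH_miR-146a replicate 3) and from 3159 to 2132 with miR-29a (without VEH_miR-29a replicate 3). Irak1 fell under LPS with miR-29a by 0.60 (log2, SE 0.13, adjusted p = 0.00624), in all 8 fits without 1 library. In scramble cells its LPS difference was -0.40 (adjusted p = 0.0779, and 0.0391 with the replicate block), with miR-7a -0.33 and with miR-146a -0.25, where the adjusted p were 0.228 and 0.274. Irak2 and Myd88 passed neither in scramble cells nor with any mimic, with estimates from 0.17 to 0.31 and from 0.05 to 0.36. Irak4 did not pass either, at -0.66 in scramble cells (95% interval -1.26 to -0.05, adjusted p = 0.123, lower in 4 of 4 same-numbered pairs), 0.38 with miR-146a, -0.19 with miR-29a and -0.68 with miR-7a. The median difference of the 10 genes was 0.27 in miR-146a, 0.26 in miR-29a, 0.20 in miR-7a and 0.12 in scramble cells, against medians from -0.02 to 0.02 over all genes tested.

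**Figure D4:**
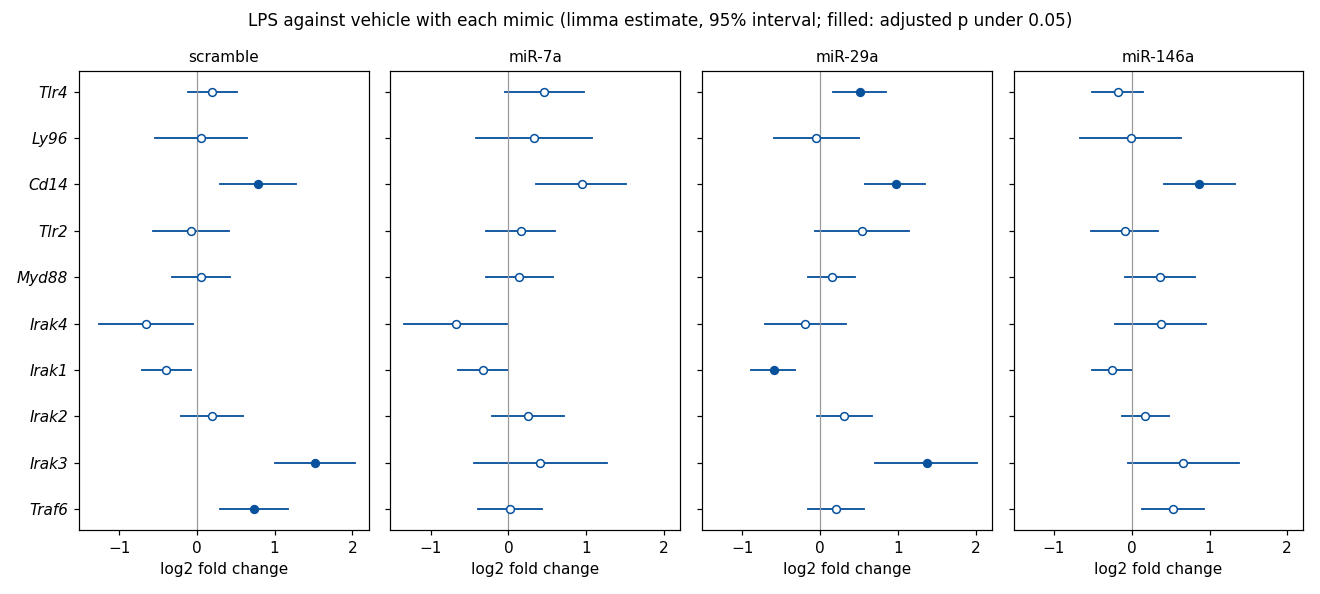
LPS against vehicle for each gene in scramble, miR-7a, miR-29a and miR-146a cells, as log2 fold change with its 95% interval (limma) on a shared axis; filled points passed an adjusted p of 0.05. Irak3 (1.52 and 1.37) stands out in scramble and miR-29a cells, and Cd14 lies between 0.79 and 0.97 in all 4.

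The miR-7a and miR-29a mimics called 0 of the 10 genes against scramble in either condition by limma. The shares of all genes called were 0.0457% for miR-7a and 0.00872% for miR-29a under vehicle, and 2.35% and 4.43% under LPS, and at an unadjusted p under 0.05 there were 1346, 1186, 2220 and 2755 genes. Single libraries moved these shares too, from 5 called genes to 231 for miR-7a under vehicle without VEH_miR-7a replicate 1, and without LPS_scramble replicate 4 from 301 to 57 for miR-7a and from 577 to 136 for miR-29a under LPS. With the replicate block Irak3, Traf6, Tlr4 and Cd14 were called for miR-7a under LPS (8.66% of all genes) and Tlr4 for miR-29a under LPS (9.72%). The test of whether a mimic acts differently under LPS and vehicle called 0 of 10 genes for each mimic (limma), where 0.00836% of all genes were called for miR-7a, 0.0166% for miR-29a and 0% for miR-146a. At an unadjusted p under 0.05 these tests had 629, 769 and 1348 genes, and without 1 library the calls over all genes reached 131 for miR-7a (without VEH_miR-7a replicate 1), 3 for miR-29a and 82 for miR-146a (without VEH_scramble replicate 1). For Irak1 and Irak2 the difference of the miR-146a effect between the conditions was 0.15 (95% interval -0.20 to 0.50) and -0.02 (-0.49 to 0.44), which leaves room for differences of about that size.

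The order of the 8 group means is another view of the same libraries, and the place of the miR-146a groups in it differed between genes. Irak1 ran from 163 ± 14.7 CPM in VEH_miR-29a to 79.8 ± 5.07 CPM in LPS_miR-146a (SD, n = 4), a ratio of 2.04, with both miR-146a groups lowest. Irak2 ran from 135 ± 29 CPM in LPS_miR-7a to 68.8 ± 9.38 CPM in VEH_miR-146a (SD, n = 4), again with both miR-146a groups lowest. Myd88 ended in LPS_miR-146a and VEH_miR-146a as well, at 26.8 ± 3.01 and 21.8 ± 5.65 CPM (SD, n = 4). For Traf6 VEH_miR-146a was lowest, at 48.8 ± 4.12 CPM (SD, n = 4). LPS_miR-146a, at 73.6 ± 18 CPM, was above LPS_miR-7a and every vehicle group of that gene. For Tlr4 VEH_miR-146a, at 80.4 ± 13.9 CPM (SD, n = 4), was above every group but LPS_miR-7a and LPS_miR-29a. Most neighbours in these orders overlapped: only VEH_miR-146a and LPS_miR-146a for Irak1, VEH_scramble and VEH_miR-146a for Traf6, and LPS_miR-146a and LPS_miR-7a for Cd14 did not, out of 7 neighbouring pairs for each gene.

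The genes whose log2(CPM + 0.5) followed each of the 10 most closely over the 32 libraries are given as a description, since libraries of one group or number are not independent points. Among 11662 genes, Cd14 was followed most closely by Pim1 (Pearson r = 0.890) and Cox6a2 (0.887), Irak3 by Fyb (0.877) and Acsl5 (0.870), and Irak1 by Fam53a (0.858) and Spr (0.831). Tlr4 was followed by Psme4 (0.843) and Brcc3 (0.840), Irak2 by Enkd1 (0.810) and Cd5 (0.775), Myd88 by Tssc1 (0.804) and Zbtb32 (0.799), and Traf6 by Hjurp (0.80) and Zcwpw1 (0.798). For Irak4 the nearest were Irf3 (0.765) and Hmgcs1 (0.725), for Tlr2 Timm44 (0.754) and Rab29 (0.749), and for Ly96 Vps37a (0.677) and Zfp433 (0.665). Between members the highest value was that of Irak3 with Cd14 (0.66) and the lowest that of Irak1 with Cd14 (-0.61).

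Other genes of the pathway were counted in 5 lists, to be read against the shares of all genes called, which under LPS were 17.7% in scramble, 4.43% in miR-146a, 6.5% in miR-7a and 26.2% in miR-29a cells and fell without single libraries as given above. Of 14 tested Toll-like receptors and co-receptors LPS called 4 in scramble cells, with Tlr3 (1.54), Lbp (1.55) and Hsp90b1 (0.55) higher and Tlr8 (-1.55) lower on the log2 scale, and a list median of 0.11. Of 20 adaptors, kinases and ubiquitin enzymes 3 were called, Tbk1 (0.62), Tifa (0.56) and Tab3 (0.54), all higher. Of 12 negative regulators Traf1 (2.64), Tnfaip3 (1.14) and Usp25 (0.67) were higher and Dok3 (-0.72) lower. Of 4 interleukin-1 receptor family genes Il1rap (0.74) was higher and Il1r2 (-1.41) lower. Of 6 other reported miR-146a targets 2 were called, 1 higher, Notch1 (1.28), and 1 lower. Like Irak3, the deubiquitinase Tnfaip3 (A20) is a known brake on this pathway, and it was also called higher under LPS with miR-29a (0.87) and miR-146a (0.86). With miR-146a the list genes called under LPS also included Notch1 (1.19), higher. With miR-7a they included Lbp (2.66), Tlr3 (1.58) and Usp25 (0.74), higher, and Tlr8 (-2.60), lower. In miR-29a cells, which also had the highest share of calls over all genes, they included Traf1 (3.32), Tlr3 (1.78), Nfkbia (0.89), Map3k8 (0.83), Chuk (0.82), Hsp90b1 (0.81), Usp25 (0.76), Tifa (0.75) and Notch1 (0.71), higher, and Dok3 (-1.23), Il1rl1 (-0.99), Cxcr4 (-0.91), Numb (-0.68) and Unc93b1 (-0.54), lower.

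Under LPS the list genes called against scramble included Tlr3 (1.43), Il1r2 (1.13) and Notch1 (-0.96) for miR-7a, and Tlr3 (1.49), Il18rap (1.45), Chuk (0.52), Cxcr4 (-0.79) and Il1r2 (-1.73) for miR-29a. For miR-146a against scramble the 5 lists held 0 called genes under vehicle and 1 under LPS, Notch1, which was lower (-0.56, limma adjusted p = 0.0296). Their medians under LPS were 0.08, 0.05, -0.11, -0.29 and 0.06 in the order above, while that of the 10 genes was -0.16 and that of all genes tested -0.01. Between miR-146a and miR-7a under LPS the called list genes included Unc93b1 (0.67) and Relb (0.89), higher, and Tlr3 (-1.62) and Il1rap (-0.83), lower. Between miR-146a and miR-29a under LPS they included Tlr6 (0.54), Unc93b1 (0.55), Ticam1 (0.91), Il1r2 (2.10) and Cxcr4 (0.84), higher, and Tlr3 (-1.68), Chuk (-0.85), Ikbke (-0.54), Il18rap (-2.29) and Notch1 (-0.53), lower. Under vehicle they were Tlr13 (0.50) and Unc93b1 (0.63), higher than with miR-7a, and Lbp (-2.57) and Notch1 (adjusted p = 0.0108), lower than with miR-29a (limma). None of the 20 or 21 tested adaptors, kinases and ubiquitin enzymes was called between miR-146a and scramble or miR-7a in either condition by limma, where 1.8% to 6.24% of all genes were called.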

How the data were processed

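RNA was sequenced from 32 BV-2 libraries (CORALL total RNA kit after ribosomal RNA depletion, single-end on NextSeq). The authors aligned and quantified reads to GRCm38 with the nf-core rnaseq workflow; strand setting and annotation are not given in the sources used here for these libraries. The deposited table holds 1 estimated count per gene and library for 45706 genes, without decimal marks. The authors' own tests used filterByExpr, TMM and limma or edgeR (named in the submitters' processing notes without versions). Marks were restored by a model that weighs 0 to 3 lost decimals from the digits and from the gene's level in the same group, condition and table. Of 590874 values above 0, 28.2% were given decimals and 1.17% stayed uncertain (posterior under 0.9), and genes with an uncertain value were left out of that comparison. For the 10 genes, all 320 values read the same without using the groups. The restoration and the tests were tried on simulated data.

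Genes were filtered by filterByExpr, TMM-normalised and tested with limma 3.58.1 (voom, R 4.3.3), each pair of groups on its own and each interaction over 4 groups. Values are called at a Benjamini-Hochberg adjusted p under 0.05 over all genes tested in a comparison, with no adjustment across the 17 comparisons. Alternatives used edgeR 4.0.16 (quasi-likelihood), DESeq2 1.42.0, another scaling, no low-count filter, 1 fit over all groups, a stricter posterior, restoration blind to group, no structural RNA genes, a log2 fold change above 0.3, the replicate number as a block, and each library left out. Levels are TMM-scaled CPM over all 32 libraries. The labels number the libraries of each group 1 to 4, and the deviations of same-numbered libraries from the group means correlated above 0.1 in every pair in 11 of 14 comparisons (mean 0.217 to 0.498), but not in VEH_miR-7a against VEH_scramble, VEH_miR-146a against VEH_scramble or LPS_miR-7a against VEH_miR-7a. The 10 genes and the pathway lists were chosen with earlier results of these data known. All 10 are named; of each list, all called genes are named where 5 or fewer were called in a comparison, and otherwise the 3 of largest log2 fold change, except for a few list genes whose results are not reported here though they stay in the counts and medians. Seed matches used the longest 3′ UTR of protein-coding transcripts with an annotated stop codon, and coordinates are those of GENCODE M21.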

Additional observations from a re-analysis of the deposited data

Results flagged for a closer look

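Among 80 sets of 4 libraries (10 genes in 8 groups), 5 held a library whose distance to its nearest neighbour took up more of the group's range than Dixon's critical value, where chance gives about 1 in 20. Irak2 was at 177 CPM in VEH_miR-7a replicate 4 while the other 3 libraries were at 99 to 101. Irak3 was at 9.62 CPM in LPS_scramble replicate 2, against 12.9 to 13.5. Irak4 was at 4.27 CPM in VEH_miR-7a replicate 3, against 11.6 to 12.9, and at 12.7 CPM in LPS_miR-29a replicate 1, against 8.46 to 8.97. Tlr2 was at 94.8 CPM in VEH_miR-7a replicate 1, against 62.2 to 65.9. VEH_miR-7a, the shallowest group, holds 3 of the 5.

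In 3 cases that no interaction test covered, all 4 same-numbered pairs of libraries went one way in one setting and the opposite way in another, and these differences were not tested. Tlr4 with miR-146a against miR-29a was 0.48 under vehicle and -0.22 under LPS on the log2 scale. Tlr2 in the same comparison was 0.24 under vehicle and -0.42 under LPS. The LPS difference of Tlr2 was -0.09 with miR-146a and 0.16 with miR-7a. The numbers do not pair the libraries of LPS_miR-7a and VEH_miR-7a, so the pairs of that case are arbitrary. None of these 6 values passed the limma test without the replicate block, and with it Tlr2 with miR-146a against miR-29a under LPS did (-0.50, adjusted p = 0.00449).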

How the results depend on the processing

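The 17 called results of the 10 genes had 306 recomputations: 235 stayed called, 71 kept the sign but missed the threshold, and 0 reversed. Of 2994 recomputations of the 153 uncalled results, 60 became called with the same sign, 0 with the opposite sign, and 116 changed sign uncalled. The number of the 10 genes called moved by more than 1.5 times in the cases below, each with the share of all genes called in that fit, and the cause was not tested. Without a low-count filter it was 1 for LPS_miR-7a against VEH_miR-7a (30.6%), and for LPS_miR-146a 2 against LPS_miR-7a (1.88%) and 0 against LPS_miR-29a (3.89%). With the DESeq2 Wald test it was 1 for LPS against vehicle with miR-7a (10.7%) and 2 with miR-146a (6.84%), 2 for VEH_miR-146a (10.1%), 2 for LPS_miR-7a (6%) and 1 for LPS_miR-29a (7.65%) against scramble, 3 and 4 for VEH_miR-146a against VEH_miR-7a (7.59%) and VEH_miR-29a (8.29%), and 2 for LPS_miR-146a against LPS_miR-29a (16.3%). With the replicate block it was 2 for LPS_miR-7a against VEH_miR-7a (14.4%), 1 for VEH_miR-146a (7.06%), 4 for LPS_miR-7a (8.66%), 1 for LPS_miR-29a (9.72%) and 3 for LPS_miR-146a (10.7%) against scramble, 5 for VEH_miR-146a against VEH_miR-7a (14%) and 4 for LPS_miR-146a against LPS_miR-29a (25.9%). The block added 19 calls and removed 0 over all comparisons, 1 each also under LPS in scramble and miR-29a cells, and 3 of the additions lie where the numbers do not pair the libraries: Tlr4 (0.56, adjusted p = 0.031) and Cd14 (0.78, adjusted p = 0.012) under LPS with miR-7a, and Tlr4 with miR-146a against scramble under vehicle (0.68, adjusted p = 0.0394), all by limma. In 1 fit over all 8 groups it was 1 for LPS_miR-7a against VEH_miR-7a (8.03%), 4 for VEH_miR-146a (12.5%), 3 for LPS_miR-7a (3.68%) and 0 for LPS_miR-146a (3.17%) against scramble, 3 and 2 for VEH_miR-146a against VEH_miR-7a (6.06%) and VEH_miR-29a (6.03%), and 2 for LPS_miR-146a against LPS_miR-29a (17.6%). Without structural RNA genes it was 1 for LPS_miR-7a against VEH_miR-7a (6.63%), 1 for LPS_miR-7a against scramble (2.82%) and 3 for VEH_miR-146a against VEH_miR-7a (5.85%). At a minimum posterior of 0.99 it was 1 for LPS_miR-7a against scramble (3.01%) and 2 each for VEH_miR-146a against VEH_miR-7a (5.57%) and VEH_miR-29a (4.4%). With edgeR it was 0 for LPS_miR-146a against scramble (1.21%) and 2 for VEH_miR-146a against VEH_miR-7a (4.3%).

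Leaving out 1 library gave 1 to 3 called genes for LPS in scramble cells, where 1092 to 2825 of all genes were called. It gave 3 to 5 for LPS with miR-29a (2132 to 3550 of all genes) and 0 to 4 for LPS_miR-146a against LPS_miR-7a (185 to 795). The other comparisons gave 0 to 1, except 0 in every fit of VEH_miR-7a and VEH_miR-29a against scramble and of the interactions. Beside the losses named with each gene, an uncalled result passed in 5 of these fits: Cd14 under LPS with miR-7a (without LPS_miR-7a replicate 1, adjusted p = 0.0403) and against scramble (without LPS_miR-7a replicate 4, 0.0142), Tlr2 under LPS with miR-29a (without LPS_miR-29a replicate 4, 0.0117), and Tlr4 against scramble (VEH_miR-146a without VEH_scramble replicate 1, 0.0327, and LPS_miR-29a without LPS_miR-29a replicate 4, 0.0318), all by limma. Over all genes, the count of calls moved by more than 1.5 times in 14 of 17 comparisons with the block, 13 with DESeq2, 7 in the joint fit, 4 without the filter, 3 with edgeR, 1 each with the stricter posterior, the blind restoration and no structural genes, and 0 with DESeq2 size factors or the fold threshold. Depth limits Irak3, Irak4 and Ly96 most, with as few as 3, 7 and 6 counts in a library.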
